A study of Mus musculus with 9 samples.

Results

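The Il2ra locus was examined as 1 window of the mouse genome, 120 kb on chromosome 2 (mm8 build, chr2:11500000-11620000), in which the transcription factors Stat5a and Stat5b were mapped by chromatin immunoprecipitation and sequencing (ChIP-seq). The window was chosen by its reads above the IgG control, and the sites by the deposited peaks. The peaks of 6 ChIP libraries, joined where they overlapped, gave 26 sites in it, numbered here by position, out of 43771 joined regions in the genome. The material is mouse CD4+ T cells on the way to the Th2 state, that of helper cells that make IL-4, and it was taken at 8 h, 13 h and 2 rounds of differentiation. At each of these 3 stages there is 1 Stat5a, 1 Stat5b and 1 IgG library, 9 in all, with no replicates. The labels name no strain, genotype, age, antibody product or culture condition, and the cell type could not be checked against marker genes because no RNA was measured in these libraries.

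Il2ra encodes the alpha chain of the interleukin-2 receptor (CD25), which raises the affinity of the receptor for IL-2. IL-2 binding activates Janus kinases, which phosphorylate Stat5a and Stat5b, and the STAT dimers move to the nucleus and bind DNA. Il2ra is itself a classical target of this pathway in T cells, so that IL-2 raises the level of its own receptor. Stat5a and Stat5b are closely related proteins that recognise the same palindromic motif, TTCNNNGAA. In the RefSeq gene table (GRCm38.p6), which differs from the build of the peaks and was used for names only, the neighbours of Il2ra are Pfkfb3 and Rbm17 on one side and Il15ra and Fbh1 on the other. Il15ra encodes the alpha chain of the related IL-15 receptor. No site is placed relative to a gene, exon or promoter here, since no mm8 annotation was used.

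The promoter of Il2ra is shown to let its letters be set beside the motif that STAT proteins bind. These are the 250 bases before the annotated start in RefSeq (GRCm38.p6, chr2:11642542-11642791, plus strand), with each TTCC or GGAA, the inner bases common to many STAT sites and read on both strands, in capitals.
Il2ra promoter: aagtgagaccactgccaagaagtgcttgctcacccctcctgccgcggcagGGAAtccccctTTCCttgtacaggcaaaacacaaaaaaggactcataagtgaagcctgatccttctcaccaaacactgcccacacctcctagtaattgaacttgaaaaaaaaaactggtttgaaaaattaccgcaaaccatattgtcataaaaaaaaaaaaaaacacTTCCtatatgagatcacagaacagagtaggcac
TTCNNNGAA did not occur on either strand of this stretch, nor did the variant with a spacer longer by 1 base. Stretches of the same length before the starts of 32851 RefSeq mouse promoters held the first in 7.02% and the variant in 5.85%. TTCC or GGAA occurred 3 times, and 54.7% of the promoters held at least as many, so the number is ordinary. That short search was chosen after the sequence had been seen. The match in letters says nothing of binding, and the promoter could not be assigned to a peak because the builds differ.

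Depth ran from 3130228 reads (Stat5a at 8 h) to 9036070 reads (Stat5b at 13 h). A level is given as RPM, the reads whose 5′ end lies in a site per 1000000 mapped reads of that library, and all intervals are at 95% and cover counting error only. With 1 library per group no p-value is given, and every comparison is between libraries. Each ratio of RPM carries an exact conditional interval and is called higher or lower when the interval lies wholly above 2 or wholly below 0.5. Distinct starts, 1 read per start and strand, made up between 51.2% and 74.7% of the reads in the sites, and no site had its reads heaped on 1 start. IgG was not flat over the window: the window held 78.5, 88.4 and 137 RPM of it (8 h, 13 h, 2 rounds), against medians of 46.8, 46.9 and 44.6 RPM over 21288 tiles of the same length.

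The window was among the strongest of the genome in all 6 ChIP libraries, which is a description because this level chose it. By reads above IgG among the tiles it ranked 4, 2 and 1 in Stat5a and 4, 2 and 5 in Stat5b at 8 h, 13 h and 2 rounds. The IgG libraries by themselves ranked the window 73, 56 and 20 among the tiles. The 26 sites covered 18.2% of the window and held 58.1% to 72.9% of its ChIP reads, the lowest share in Stat5b at 8 h and the highest in Stat5b of 2 rounds. In IgG they held 32.2%, 30.4% and 23.0%. The plot of reads along the window shows these sites as separate peaks on a low floor.

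**Figure D1:**
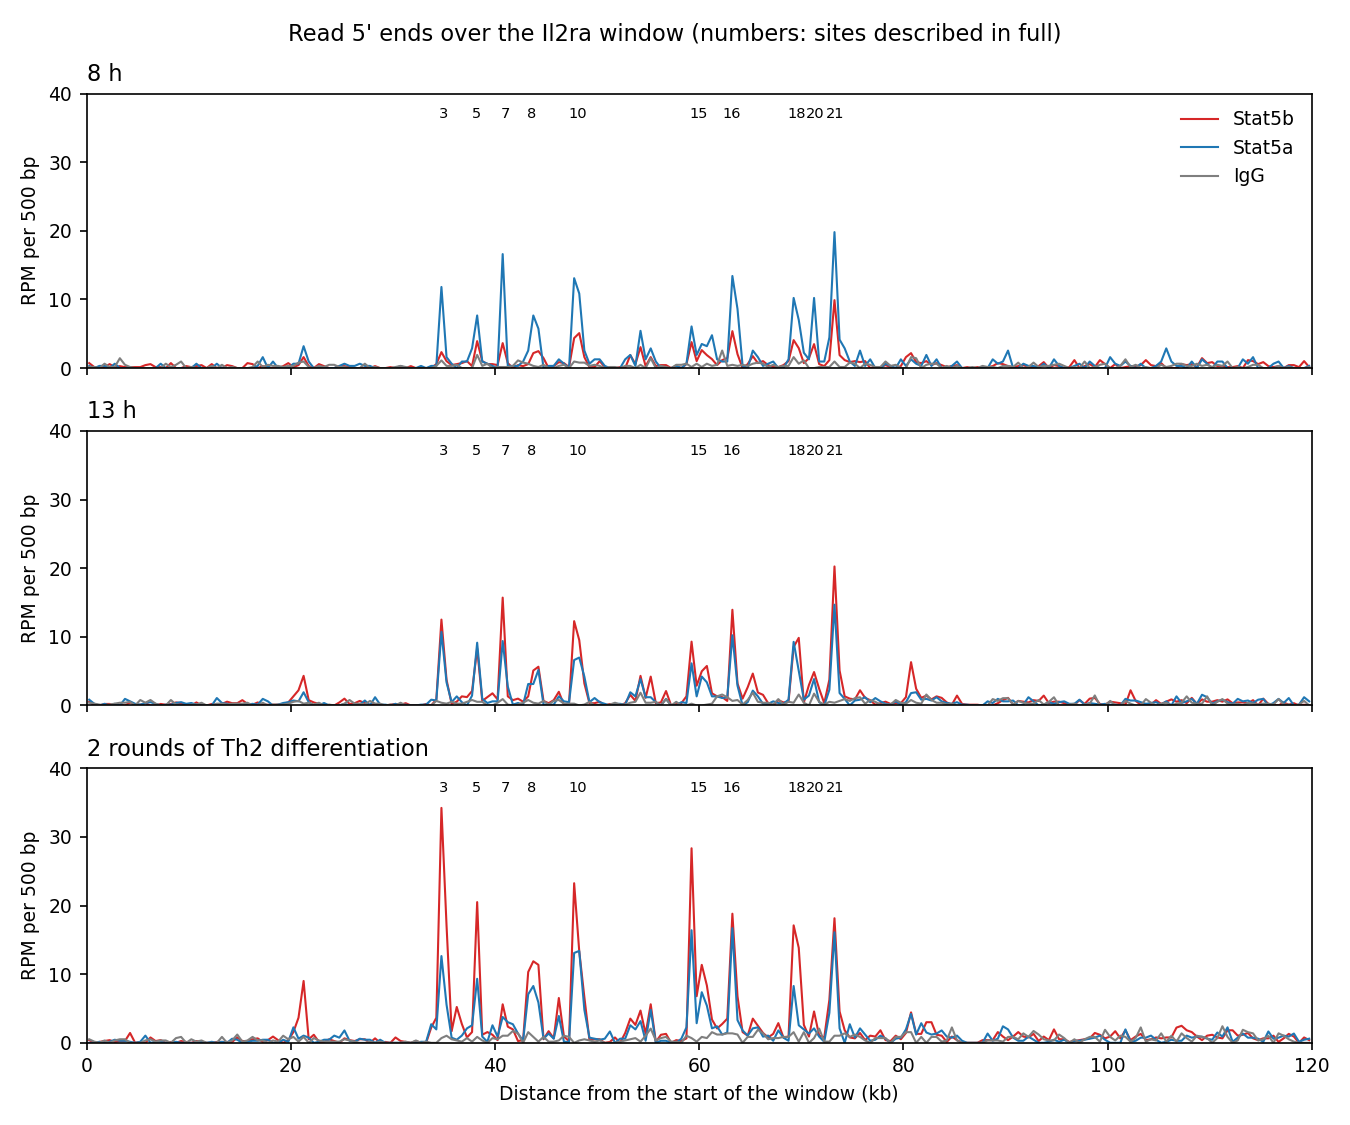
RPM counted from read 5′ ends in each bin of 500 bp (y axis) against the distance from the start of the 120 kb window in kb (x axis), for Stat5a, Stat5b and IgG, 1 panel per stage. The 10 numbered sites stand above IgG in every panel, with site 21 at 19.8 RPM in its highest bin in Stat5a at 8 h and site 3 at 34.2 RPM in Stat5b after 2 rounds.

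Of the 26 sites, 10 were listed in all 6 peak lists, against 2.63% of all joined regions. A further 5 sites were in 2 to 5 lists and 11 in 1 list, of which 4 came from Stat5b after 2 rounds and 4 from Stat5b at 13 h. The lists differ in depth, and the joined lists chose the sites, so these counts are no test. The sites that held at least 5% of all site reads in any ChIP library are described one by one below. There were 10 of them, numbers 3, 5, 7, 8, 10, 15, 16, 18, 20 and 21, and they spanned 39.5 kb. They held between 77.4% and 86.2% of the site reads in the ChIP libraries and between 55.4% and 65.9% in IgG. At the edge of this rule, site 20 reached 5.26% (Stat5a at 8 h), while site 22 reached 4.01% (Stat5b at 13 h) and was left among the others.

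Reads of opposite strands flanked most of these sites, as they do around a protein cross-linked to a short stretch of DNA. Among 40 pairs of a site and a library with at least 20 distinct starts on each strand, the median minus-strand start lay downstream of the median plus-strand start in 38. The median distance was 142.5 bp. The centre between the strands of site 3 stayed within 30 bp over 4 libraries and that of site 18 within 51 bp over 3. At site 21 it stayed within 98 bp over all 6 libraries, with distances of 114 to 148 bp. The 2 pairs in the other order were both at site 15, whose centres ranged over 408 bp. Site 15 was joined from 14 deposited peaks. The bin from 11559001 held 16.4 RPM in Stat5a and 28.3 RPM in Stat5b after 2 rounds, and a separate rise from 11560001 held 7.37 and 11.4 RPM. The bins of both antibodies followed each other across the window. Over the 240 bins, Pearson's r between Stat5a and Stat5b was 0.882, 0.936 and 0.900 at 8 h, 13 h and 2 rounds, and Spearman's rho was 0.513, 0.575 and 0.668. Between ChIP and IgG of the same stage r was 0.162 to 0.331 and rho 0.272 to 0.400. Bins of 1 locus share their library and are not replicates, so these values are descriptions.

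Summed over all sites, Stat5a differed by less between stages than Stat5b. Stat5a held 206 RPM (190.8 to 223) at 8 h, 159 RPM (151 to 168) at 13 h and 221 RPM (210 to 233) after 2 rounds. Stat5b held 92.6 RPM (85.6 to 100.1), 218 RPM (209 to 228) and 377 RPM (363 to 391). IgG held 25.3, 26.8 and 31.4 RPM. The Stat5b level at 8 h was the lowest of the ChIP libraries and that after 2 rounds the highest, and none of the 3 Stat5b intervals overlapped another.

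The scaling decides how the Stat5b values are read. The ratio of 2 rounds to 8 h at the locus was 4.07 (3.73 to 4.44) for Stat5b. The median over the 34502 joined regions with reads in both libraries was 4.82, and over the 1151 regions listed in all 6 lists it was 4.15. Scaled by the first of these medians, the locus ratio turned to 0.845. From 8 h to 13 h the Stat5b ratio of 2.36 (2.15 to 2.58) became 1.24, and from 13 h to 2 rounds that of 1.73 (1.63 to 1.83) became 0.670. After 2 rounds the higher Stat5b level of the locus was thus no larger than the median over joined regions. That median can itself be raised by the choice of regions, many of which came from the Stat5b list of 2 rounds. In that list 33692 peaks held at least 5 distinct starts, against 3842 in the Stat5b list at 8 h. Over the regions in all 6 lists, the Stat5b medians were 2.22 from 8 h to 13 h and 1.93 from 13 h to 2 rounds. Scaled Stat5b values of 2 rounds rest on the median over all regions and can lie too low. For Stat5a the ratio of 13 h to 8 h was 0.772 (0.702 to 0.849), that of 2 rounds to 13 h was 1.39 (1.29 to 1.50) and that of 2 rounds to 8 h was 1.07 (0.977 to 1.18). Medians over all regions were 0.869, 1.25 and 1.10, so Stat5a also moved close to the rest of the regions.

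Shares of the reads within the locus do not depend on this scaling, and they showed which sites gained and lost weight. In each library a site's share is its percent of the reads in all 26 sites, and shares were compared as odds ratios, called when the interval excluded 1. These intervals were not adjusted for the number of sites, and a share can only gain where others lose. Background reads stay in the shares. Over the sites IgG held 25.3 RPM against 92.6 RPM in Stat5b at 8 h, but 31.4 against 377 RPM after 2 rounds. After 2 rounds, set against 8 h, the share of site 15 was higher and the shares of sites 7, 20 and 21 were lower in both antibodies, whose libraries are separate. Site 2 was also called higher in both, but it is listed in the 2 lists of 2 rounds alone, which chose it, and in Stat5a it rests on 1 read at 8 h and was not called on distinct starts. At 8 h and at 13 h the largest share was at site 21 in both antibodies, and after 2 rounds it was at site 15 in both. In IgG, which has few reads at the sites, shares were called too, 3 higher and 3 lower from 8 h to 13 h, 2 and 2 from 13 h to 2 rounds, and 1 and 2 from 8 h to 2 rounds. Among them, from 13 h to 2 rounds, were site 15 higher (6.37) and site 20 lower (0.226), in the directions seen with both antibodies, though neither on distinct starts. What part the control reads have in the ChIP shares was tested only by taking reads above IgG, which left the share of site 15 after 2 rounds at 16.0% in Stat5a and 15.2% in Stat5b, against 7.23% and 11.5% at 8 h, and that of site 20 at 0.836% and 1.25%, against 5.91% and 5.39%. The largest shares of IgG were elsewhere, at site 22 at 8 h and at site 16 later.

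**Figure D2:**
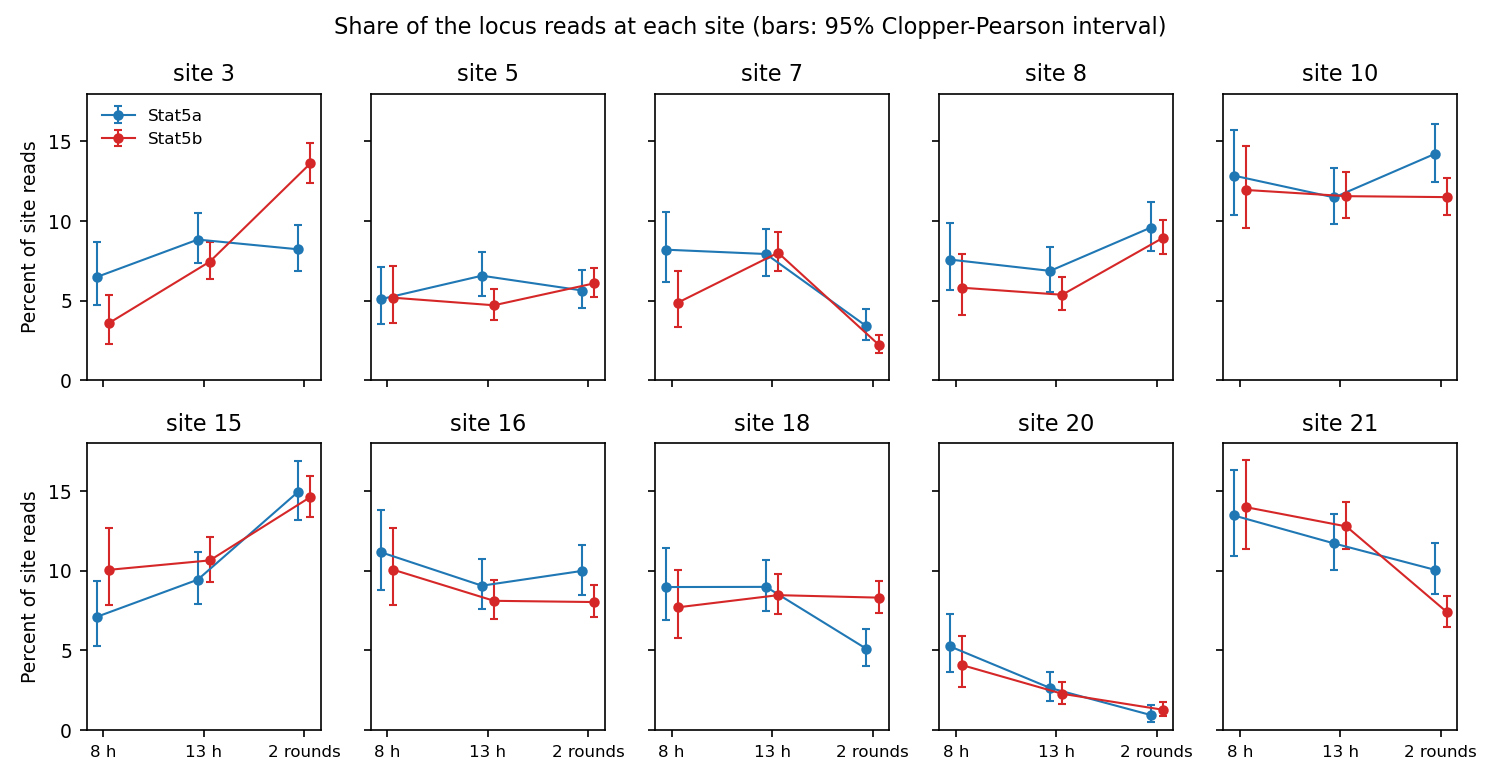
Percent of all site reads of a library (y axis) at each of the 10 sites, by stage (x axis), for Stat5a and Stat5b, with exact Clopper-Pearson 95% intervals as bars. Site 15 ends at 15.0% and 14.6% after 2 rounds, while sites 7 and 20 end at or below 3.40% in both antibodies.

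Site 15 (chr2:11558937-11561042) was the only 1 of the 10 sites whose share, on all reads, was called higher in both antibodies from 8 h to 2 rounds. Its levels in Stat5a were 14.7 RPM at 8 h, 15.0 RPM at 13 h and 33.1 RPM after 2 rounds, and in Stat5b 9.32, 23.2 and 55.1 RPM, against 1.60, 0.399 and 2.77 RPM in IgG. After 2 rounds it was the highest of all sites in both antibodies. Its share went from 7.12% to 9.44% and 15.0% in Stat5a, and from 10.1% to 10.7% and 14.6% in Stat5b. The odds ratio of 2 rounds to 8 h was 2.29 (1.64 to 3.27) in Stat5a and 1.53 (1.15 to 2.05) in Stat5b, and both calls held on distinct starts. By share, both antibodies showed the step between 13 h and 2 rounds, and neither was called between 8 h and 13 h. The odds ratios of the later step were 1.69 (1.33 to 2.15) in Stat5a and 1.44 (1.20 to 1.72) in Stat5b, both called on distinct starts. In Stat5a the ratio of RPM for that step was 2.20 (1.76 to 2.76).

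Site 8 (chr2:11542887-11544305) followed site 15 in part. Its levels were 15.7, 10.9 and 21.2 RPM in Stat5a, 5.39, 11.7 and 33.7 RPM in Stat5b and 1.12, 1.59 and 2.59 RPM in IgG. Its share exceeded that of 13 h in both antibodies at 2 rounds, at 9.59% against 6.87% in Stat5a and 8.94% against 5.38% in Stat5b. The odds ratios were 1.44 (1.08 to 1.91) and 1.73 (1.36 to 2.20). In Stat5a the share was 6.91% when 25 bp reads alone were counted, against 7.09% at 13 h. The Stat5a library after 2 rounds is a mixture of 24 and 25 bp reads, and what sets the 24 bp reads apart was not tested. From 8 h to 2 rounds the Stat5a share of site 8 was not called with all reads (1.29, 0.913 to 1.85). On distinct starts it was called higher (1.63, 1.02 to 2.67), as in Stat5b.

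Site 20 (chr2:11571074-11571609) had the lowest odds ratio of share among the 10 sites in both antibodies, 2 rounds against 8 h. It was taken among the 10 only through its share in Stat5a at 8 h, so its Stat5a fall follows in part from that choice. In Stat5a its level was 10.9 RPM at 8 h, 4.21 RPM at 13 h and 2.11 RPM after 2 rounds, from 34, 35 and 14 reads. In Stat5b it was 3.79, 4.98 and 4.83 RPM, the smallest ratio of 2 rounds to 8 h among the 10 sites. IgG held 0.160, 1.86 and 0.518 RPM there, and at 13 h the Stat5a level was only 2.26 (1.19 to 4.55) times that of IgG. The share went from 5.26% to 2.64% and 0.952% in Stat5a, and from 4.09% to 2.28% and 1.28% in Stat5b. That odds ratio was 0.173 (0.0852 to 0.334) in Stat5a and 0.305 (0.178 to 0.528) in Stat5b, called on distinct starts too. In percentage points site 7 lost more in Stat5a and site 21 in Stat5b. Site 20 was also the 1 site whose share was called lower from 8 h to 13 h in both antibodies, but not on distinct starts.

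Site 7 (chr2:11540348-11541593) lost weight only after 13 h. Its Stat5a levels were 16.9, 12.6 and 7.52 RPM, its Stat5b levels 4.51, 17.5 and 8.49 RPM and its IgG levels 0.801, 1.33 and 2.25 RPM. In Stat5b it was high at 13 h alone, and in Stat5a it was lowest after 2 rounds. Between 13 h and 2 rounds its share went from 7.93% to 3.40% in Stat5a and from 8.01% to 2.25% in Stat5b. The odds ratios of that step were 0.409 (0.283 to 0.583) and 0.265 (0.194 to 0.358), and both held on distinct starts. By level, Stat5b after 2 rounds was 0.485 (0.358 to 0.652) times that at 13 h, not called.

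Site 21 (chr2:11572730-11573988) held the largest share early. Stat5a gave 27.8, 18.6 and 22.3 RPM, Stat5b 13.0, 27.9 and 27.9 RPM and IgG 1.28, 1.33 and 2.25 RPM. Its Stat5b level gave a ratio of 1.002 (0.831 to 1.21) between 13 h and 2 rounds, while those of sites 3, 5, 8 and 15 were above 2. Its share was 13.5%, 11.7% and 10.1% in Stat5a and 14.0%, 12.8% and 7.41% in Stat5b. The odds ratio of 2 rounds to 8 h was 0.492 (0.376 to 0.648) in Stat5b, and in Stat5a it was 0.719 (0.537 to 0.966), which was not called on distinct starts. On 25 bp reads alone the last Stat5a share was 7.46%.

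Site 3 (chr2:11534496-11535493) stood apart in Stat5b. Its Stat5b level was 3.35 RPM at 8 h, 16.3 RPM at 13 h and 51.3 RPM after 2 rounds, from 23, 147 and 393 reads. In Stat5a it held 13.4, 14.1 and 18.2 RPM, and in IgG 1.44, 0.664 and 1.73 RPM. The ratio of 2 rounds to 8 h in Stat5b was 15.3 (10.1 to 24.5), and 10.3 on distinct starts, the highest of the 10 sites. At 8 h the Stat5b reads were few, 2.32 (1.03 to 5.70) times IgG, so that the low end of this ratio rests on 23 reads. The share rose in Stat5b from 3.62% to 13.6%, with an odds ratio of 4.20 (2.73 to 6.76), while in Stat5a the odds ratio was 1.29 (0.887 to 1.90) and was not called.

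Site 18 (chr2:11568984-11570075) also parted between the antibodies. Stat5a gave 18.5, 14.3 and 11.3 RPM, Stat5b 7.14, 18.5 and 31.3 RPM and IgG 2.72, 2.52 and 1.90 RPM. The Stat5a share was 8.98%, 8.99% and 5.10%, lower after 2 rounds than at 13 h with an odds ratio of 0.544 (0.398 to 0.741). In Stat5b the share kept close to 8%, at 7.70%, 8.47% and 8.31%.

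The shares of sites 10, 16 and 5 moved less between 8 h and 2 rounds. Site 10 (chr2:11547310-11548960) gave 26.5, 18.3 and 31.4 RPM in Stat5a, 11.1, 25.2 and 43.4 RPM in Stat5b and 2.56, 0.399 and 0.864 RPM in IgG, with a share between 11.5% and 14.2% in all 6 ChIP libraries. Site 16 (chr2:11562314-11563973) gave 23.0, 14.4 and 22.1 RPM in Stat5a and 9.32, 17.7 and 30.3 RPM in Stat5b. Its IgG level was the highest of the 10 sites after 2 rounds, at 4.84 RPM, and 1.76 and 3.06 RPM before. Site 5 (chr2:11537614-11538683) gave 10.5, 10.5 and 12.5 RPM in Stat5a, 4.81, 10.3 and 23.0 RPM in Stat5b and 1.92, 1.73 and 1.04 RPM in IgG. None of these 3 sites had a share called different between 8 h and 2 rounds in either antibody. Between 13 h and 2 rounds site 10 was called higher in Stat5a (odds ratio 1.28, 1.01 to 1.61) and site 5 in Stat5b (1.31, 1.01 to 1.72), neither on distinct starts.

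**Figure D3:**
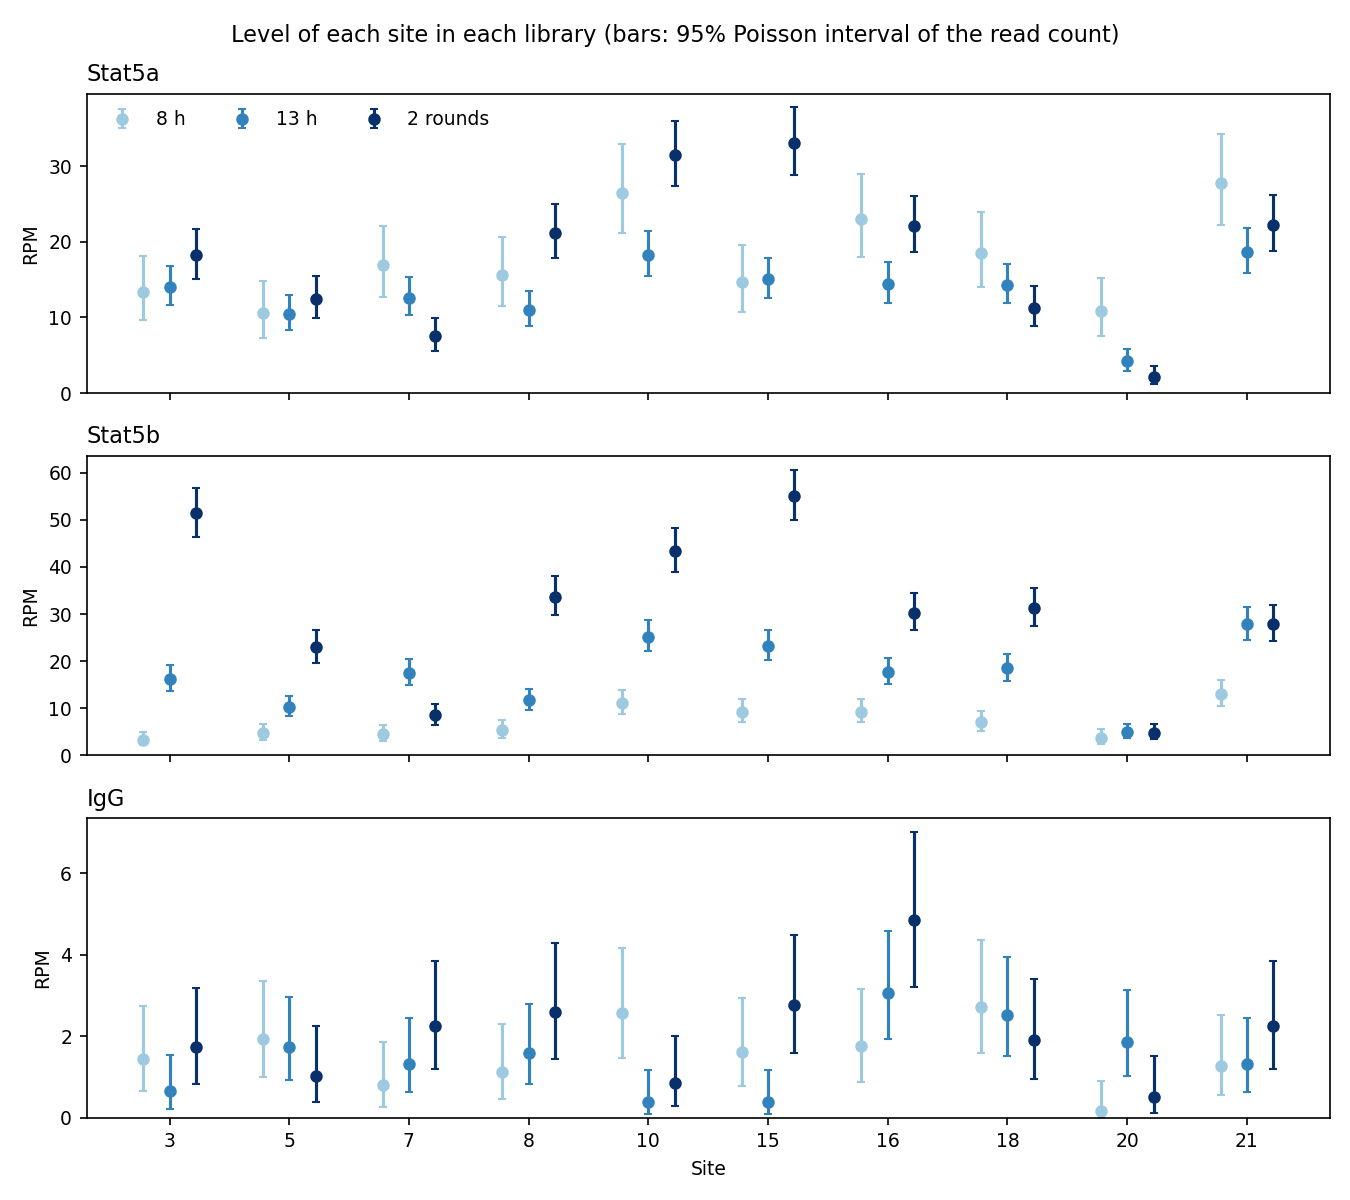
RPM (y axis) at each of the 10 sites (x axis) in the Stat5a, Stat5b and IgG libraries, shaded by stage, with exact Poisson 95% intervals of the read count as bars; each panel has its own y scale from 0. Stat5b after 2 rounds lies above Stat5b at 8 h at every site, from 4.83 RPM at site 20 to 55.1 RPM at site 15, and IgG stays at or below 4.84 RPM.

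By level, the rule of an interval wholly beyond 2-fold called few Stat5a sites. It called none between 8 h and 13 h, where 0.286% of all regions were higher and 2.15% lower, and none between 13 h and 2 rounds, where 7.67% were higher and 3.97% lower. An interval excludes 1 more easily where reads are many, and the 10 sites were taken for their reads. Counts of intervals beyond 1 thus have no matched background in the percent of all regions, here and between antibodies. Set against 1 in place of 2-fold, the Stat5a interval of 13 h to 8 h lay below 1 at 4 of the 10 sites (10, 16, 20 and 21), where 9.66% of all regions did. That of 2 rounds to 13 h lay above 1 at 4 sites (8, 10, 15 and 16; 21.9% of all regions) and below 1 at 2 sites (7 and 20; 14.4%). Between 8 h and 2 rounds it lay above 1 at site 15 alone (14.4% of all regions) and below 1 at 3 sites, 7, 18 and 20 (7.30%). Over the whole course the direction was thus mixed in Stat5a, at a ratio of 1.07 for the sum of the sites.

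Beyond 2-fold, Stat5a after 2 rounds was lower than at 8 h at 2 of the 26 sites, 20 and 26, where 1.91% of all regions were called. Site 20 had a ratio of 0.194 (0.0962 to 0.371), and it was called on distinct starts too, but not on 25 bp reads alone (ratio 0.244). Stat5a at 8 h was the only library in which site 20 passed the rule for a full description. Its Stat5a fall thus starts from the library that let it in. Site 26 had 10 reads at 8 h and 1 after 2 rounds, a ratio of 0.0471 (0.00109 to 0.331) that was not called on distinct starts. The Stat5a list at 8 h was the only one that held site 26, so its fall starts from the library that chose it.

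In Stat5b the calls were in the direction of a higher level at the later stage. Of the 26 sites, 2 were called between 8 h and 13 h, against 5.27% of all regions and 18.8% of the 1151 regions in all 6 lists. The 2 sites were site 3 at 4.86-fold (3.12 to 7.90) and site 7 at 3.87-fold (2.62 to 5.89). Neither was called on distinct starts, where the ratios were 3.27 and 2.87. Site 20 had the lowest ratio of the 10, 1.31 (0.794 to 2.22).

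Between 13 h and 2 rounds Stat5b was called higher at 5 sites, 2, 3, 4, 8 and 15, where 25.1% of all regions were. Site 3 was 3.15-fold higher (2.60 to 3.84), site 8 was 2.87-fold higher (2.28 to 3.64) and site 15 was 2.37-fold higher (2.00 to 2.81). Site 15 was not called on distinct starts, at 2.06, and under the median scaling its ratio turned to 0.920. Sites 2 and 4, with 44 and 57 reads after 2 rounds against 2 and 16 at 13 h, are in no list but those of 2 rounds, so their calls start from the libraries that chose them and only sites 3, 8 and 15 can be read against the background.

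Over the whole course, 8 h to 2 rounds, Stat5b was called higher at 13 sites, 1, 2, 3, 4, 5, 8, 9, 10, 11, 15, 16, 18 and 24, where 43.4% of all regions were, so the count is near that background. Among the 1151 regions of all 6 lists 68.9% were called. Site 8 was 6.25-fold higher (4.42 to 9.08), site 15 was 5.91-fold higher (4.54 to 7.82) and site 21 was 2.16-fold higher (1.68 to 2.79), not called. Site 7 had a ratio of 1.88 (1.21 to 2.98), and site 20 had 1.28 (0.752 to 2.19). Scaled by the median ratio, 1 site was called higher and 3 lower, and sites 5, 10, 16 and 18 turned to 0.992, 0.813, 0.674 and 0.911. Site 24 had 0 reads at 8 h and 21 after 2 rounds, at least 6.28-fold higher if the early library is given a floor of 3 counts. Sites 4, 9, 11 and 24 come from the Stat5b list of 2 rounds alone, and site 2 from the lists of 2 rounds, so a library that chose them is the one in which they are high.

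**Figure D4:**
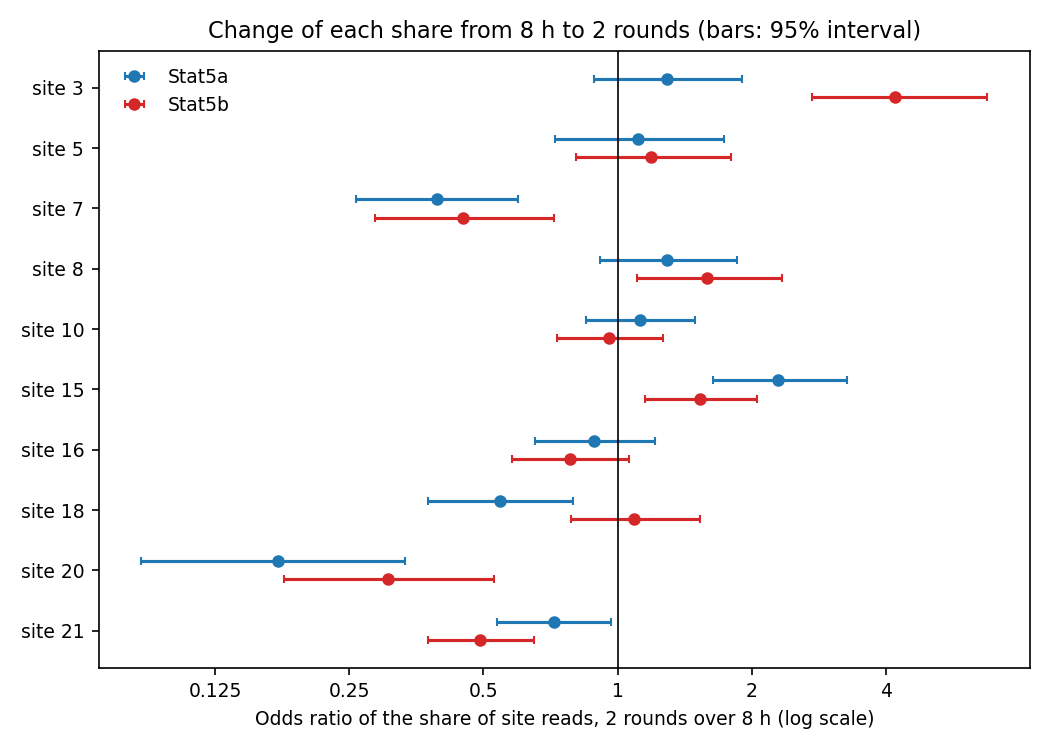
Odds ratio of the share of site reads after 2 rounds over that at 8 h (x axis, log scale) at each of the 10 sites (y axis), for Stat5a and Stat5b, with exact 95% intervals as bars and a line at 1. Site 15 lies right of the line and sites 7, 20 and 21 left of it in both antibodies, while sites 3 and 8 lie clear of it to the right in Stat5b alone, site 3 at 4.20. All reads are shown. On distinct starts site 8 was called higher in Stat5a too, at 1.63 (1.02 to 2.67).

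The antibodies were compared within each stage, which asks whether Stat5a and Stat5b favoured different sites of the locus. A ratio of levels between antibodies also holds the yield of each precipitation, which was not measured. At 8 h Stat5b was below Stat5a over the locus, at a ratio of 0.449 (0.402 to 0.501). The interval lay below 1 at 10 of the 10 sites, against 14.6% of all regions. Those 10 sites were taken for their many reads, so that percent is no matched background. Over the 1151 regions in all 6 lists the median ratio was 0.456. The median over all regions with reads in both was 0.547, and scaled by it the locus ratio was 0.820. Called below 0.5 were sites 3, 7 and 26 (3.80% of all regions), with ratios of 0.250 (0.143 to 0.425), 0.267 (0.165 to 0.423) and 0.0456 (0.00105 to 0.320), none of them on distinct starts. Among the regions in all 6 lists 9.38% were called lower. For site 26 this direction follows from the choice, since the Stat5a list at 8 h alone held it.

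At 13 h the order was turned, with 1.37 (1.28 to 1.47) over the locus and a median of 1.24 over all regions. Over the 1151 regions in all 6 lists the median was 1.46. The interval lay above 1 at 5 of the 10 sites (7, 10, 15, 18 and 21), against 16.8% of all regions, again no matched background. The ratios of the 10 sites ran only from 0.983 to 1.54, and none of the 26 was called beyond 2-fold, where 2.08% of all regions were higher and 5.33% lower.

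After 2 rounds Stat5b stood at 1.70 (1.60 to 1.82) times Stat5a over the locus, below the median of 2.43 over all regions, and scaled by that median it was 0.701. Over the 1151 regions in all 6 lists the median was 1.93. Sites 1, 3, 4, 18 and 24 were called higher, against 17.2% of all regions and 23.4% of the regions in all 6 lists. Site 3 was 2.82-fold higher (2.29 to 3.48) and site 18 was 2.78-fold higher (2.13 to 3.65), while site 7 had a ratio of 1.13 (0.768 to 1.67) and site 21 one of 1.25 (1.01 to 1.56). Sites 1, 4 and 18 were called on distinct starts, and site 3 was not, at 2.64. Counted on 25 bp reads alone, 2 sites were called.

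By share, which leaves out the scale between libraries, Stat5b after 2 rounds exceeded Stat5a at sites 3 and 18 and at the small sites 1, 4 and 24. A share still holds background reads, so the yield of a precipitation can move it. Over the sites IgG held 31.4 RPM at that stage, against 377 RPM in Stat5b and 221 RPM in Stat5a. The odds ratio was 1.76 (1.41 to 2.20) at site 3, 1.69 (1.29 to 2.24) at site 18, 3.77 (2.09 to 7.38) at site 1 and 3.27 (1.60 to 7.54) at site 4, and these 4 were called on distinct starts. Sites 4 and 24 come from the Stat5b list of 2 rounds alone, so their direction follows from that choice. Stat5a had the larger share at 7 sites, 6, 7, 10, 16, 21, 22 and 23, of which site 23 was listed in Stat5a of 2 rounds alone and so was chosen there. Of these, site 21 was called on distinct starts, with an odds ratio of 0.716 (0.572 to 0.898). No site's share was called different between the antibodies on distinct starts at 8 h or at 13 h. With all reads, 5 sites were called at 8 h (3, 7, 12, 22 and 26) and 5 at 13 h (2, 5, 14, 17 and 22). Of these, site 12 was listed in Stat5b at 8 h alone, site 26 in Stat5a at 8 h alone and site 17 in Stat5b at 13 h alone. Each had its larger share in the library that chose it, so its direction follows from that choice. The reads moved between sites to turn one set of shares into the other came to 13.95 percentage points at 8 h, against 9.23 at 13 h and 13.94 in the last stage, so 8 h was no closer than 2 rounds, and the 8 h libraries held fewer site reads, 646 and 636.

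**Figure D5:**
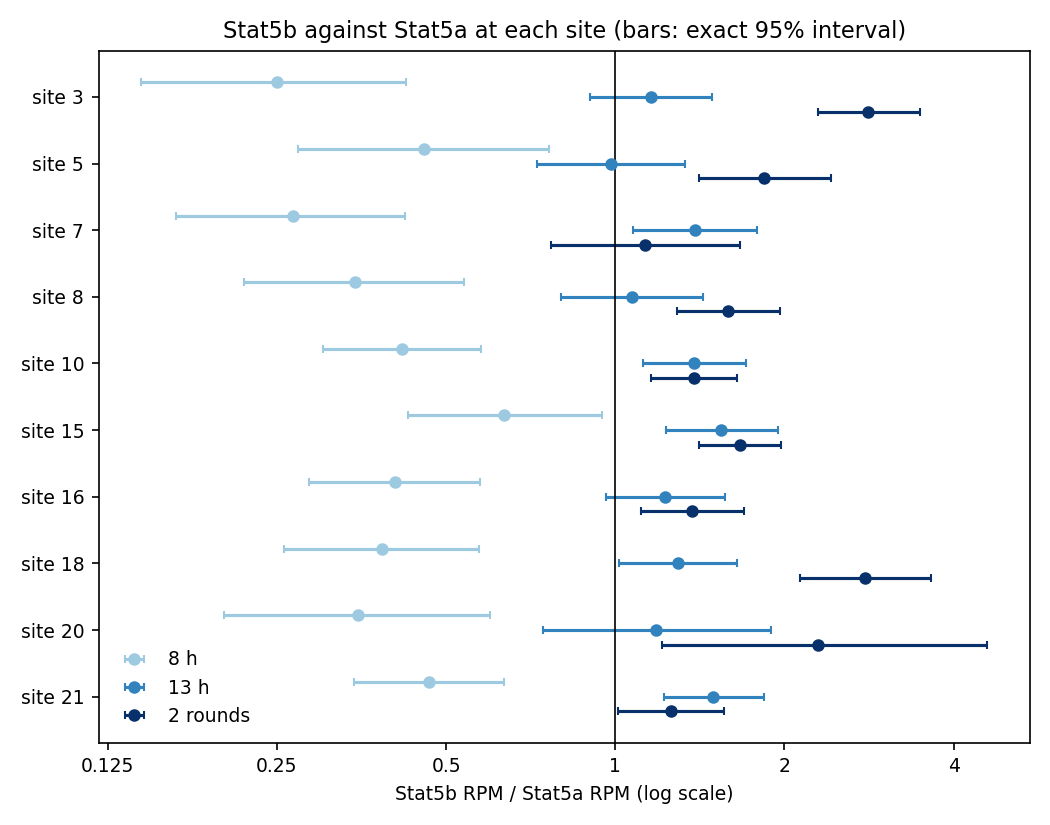
Ratio of Stat5b RPM to Stat5a RPM (x axis, log scale) at each of the 10 sites (y axis) at 8 h, 13 h and 2 rounds, with exact 95% intervals as bars and a line at 1. All 10 sites lie left of 1 at 8 h, and after 2 rounds sites 3 and 18 lie farthest right, at 2.82 and 2.78.

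The other 16 sites were weaker, from 0 to 12.3 RPM in the ChIP libraries, and none exceeded 4.01% of the site reads. Site 1 (chr2:11520647-11521615) lies 12243 bp before site 2 and gave 2.33, 5.76 and 12.3 RPM in Stat5b and 4.47, 2.65 and 1.96 RPM in Stat5a. By value its order over the stages was thus opposite in the antibodies, and IgG held 1.60, 0.930 and 1.04 RPM. The Stat5a values rest on 14, 22 and 13 reads. Their ratios of 13 h to 8 h (0.592, 0.29 to 1.25) and of 2 rounds to 13 h (0.739, 0.342 to 1.53) had intervals that held 1. The Stat5a share was called lower from 8 h to 2 rounds (0.403, 0.173 to 0.930). After 2 rounds Stat5a was 1.89 (0.669 to 6.05) times IgG there. Site 13 (chr2:11553552-11554655) was in all 6 lists and kept between 3.64 and 7.70 RPM in every ChIP library. Site 22 (chr2:11580479-11581322) peaked at 13 h in Stat5b, with 3.06, 8.74 and 5.88 RPM, where IgG held 3.04, 1.20 and 1.56 RPM, so at 8 h it did not stand above IgG. Sites 6, 17, 19 and 25 were listed in Stat5b at 13 h alone, so that library chose them and a lower Stat5b share afterwards is no finding. The odds ratios of 2 rounds to 13 h were 0.419 (0.1502 to 1.09) at site 6, not called, 0.336 (0.198 to 0.555) at site 17, 0.145 (0.0489 to 0.357) at site 19 and 0.107 (0.0203 to 0.364) at site 25.

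The Stat5b list at 8 h cut sites into narrow pieces. Its 21 peaks in the window had a median width of 120 bp, against 804.5 bp for the 22 peaks of Stat5b after 2 rounds. Of the 21 peaks, 9 had at least 80% of their distinct starts on 1 strand, as did 33.7% of the peaks with at least 5 starts in that whole list. In the other lists 0 to 2 window peaks did. At site 7 the peak at chr2:11540582-11540683 held 7 plus-strand and 0 minus-strand starts, and the next, at chr2:11540702-11540821, held 1 and 11. At site 8 a similar pair, chr2:11543848-11543980 and chr2:11543990-11544111, held 9 and 2, then 1 and 8. Such pairs were each counted as 1 site here, because the peaks of the other lists span both pieces.

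The spread of reads over many sites was set beside that of other strongly bound loci. Regions in at least 2 lists were grouped where gaps were under 10 kb, and the 10 groups with the highest mean RPM above IgG were described. The Il2ra group had 14 regions from site 2 to site 22 and ranked 2 of 11296 by that mean, and 3 groups had more regions. Its strongest region held between 12.8% and 16.5% of its reads in the 6 ChIP libraries, with intervals from 10.99% to 19.4%. In the group that ranked above it (chr9:107152367-107172446, 7 regions) the strongest region held 49.1% to 53.9%. Across the other 9 groups and 6 libraries the lowest value was 21.7% (18.9% to 24.8%; chr6:129174277-129203892, Stat5b at 13 h), against 14.5% (12.9% to 16.2%) at Il2ra in that library. The inverse sum of squared shares, which counts how many equal sites would give the same spread, was 9.23 to 10.7 at Il2ra, and 6.77 at the highest of the others. It cannot exceed the number of regions, which was 9 in the group with 6.77, so groups with few regions could not reach the Il2ra values. In the groups of like size, with 15, 15 and 13 regions, it reached 5.97, 5.22 and 6.48. The strongest region held at least 26.0%, 37.3% and 30.9% of the reads there. These groups were defined with earlier results of these data known, and the ranks are descriptions.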

How the data were processed

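Stat5a, Stat5b and IgG ChIP-seq of mouse CD4+ T cells gave 9 libraries. The deposited files hold, per the file headers and columns, the start and end in bp (mm8) and the strand of each mapped read, 1 line per read, and, for the 6 ChIP libraries, the start and end of each peak called by the authors, with no height or score. Which aligner and peak caller made them is not given in the sources used here. All libraries held 25 bp reads, and 4 also held 24 bp reads, whose starts were moved by 1 bp. The 6 peak lists were joined where they overlapped by at least 1 bp. Read 5′ ends were counted per site and per 500 bp and scaled to RPM, from 3130228 to 9036070 reads per library. Levels carry exact Poisson intervals, shares exact Clopper-Pearson intervals, and ratios and odds ratios exact conditional intervals, all at 95%. Calls by ratio were made over all 43771 joined regions. Sites with at least 5% of site reads in any ChIP library, and any site called in a comparison, are named. The members, lists and rules were chosen with earlier results of these data known. The rule for ratio calls was tested on simulated data. Alternatives were distinct starts, scaling by reads outside peaks or by the median ratio, other joining, bins, positions and thresholds, reads above IgG, pooled IgG and 25 bp reads alone. Genes at the sites were left out for want of an mm8 annotation. The software was scipy 1.17.1, pandas 2.3.3, matplotlib 3.10.9 and numpy 2.4.6 under Python 3.11.15.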

Additional observations from a re-analysis of the deposited data

Results flagged for a closer look

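Stat5a and Stat5b moved in opposite directions, each with an interval that excluded 1, at several sites; that the ratios differ between Stat5a and Stat5b was not tested. From 8 h to 13 h the ratio was 0.690 in Stat5a and 2.28 in Stat5b at site 10, 0.628 and 1.90 at site 16, 0.671 and 2.15 at site 21, and 0.772 and 2.36 over all sites. From 8 h to 2 rounds it was 0.444 and 1.88 at site 7 and 0.609 and 4.39 at site 18. These directions rest on the scaling to mapped reads. From 8 h to 13 h the medians over all regions were 0.869 in Stat5a and 1.90 in Stat5b. Over the regions in all 6 lists they were 0.711 and 2.22, so the opposite directions of that step were not particular to these sites. The shares of sites 10, 16 and 21 were not called between 8 h and 13 h in either antibody. The medians over all regions from 8 h to 2 rounds were 1.10 in Stat5a and 4.82 in Stat5b, so sites 7 and 18 lay below the median in both antibodies. Over the regions in all 6 lists the medians were 0.97 and 4.15, and site 18 in Stat5b lay above the latter. By share, the odds ratio at site 7 was lower in both, 0.394 and 0.450, and at site 18 it was 0.545 and 1.09, the latter not called.

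Outside the deposited peaks, the bin of 500 bp from 11564001, between sites 16 and 17, held 1.81 RPM in Stat5a and 1.57 RPM in Stat5b after 2 rounds and no read in IgG. It begins directly past the end of site 16, at 11563973, while site 17 starts at 11565072. Whether its reads belong to site 16 was not tested. This bin was above IgG on distinct starts too in both libraries. It was singled out of 175 bins outside sites, of which 7 were above and 7 below IgG in that Stat5a library and 14 above and 4 below in that Stat5b library.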

How the results depend on the processing

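No paired analysis was possible because each group has 1 library. Of the site shares recomputed, 71 moved beyond their interval and 289 did not. Of those that moved, 56 came from 1 setting, shares of all window reads, in which 4 did not move. That setting lowers the shares by construction, since it enlarges the total. Locus levels moved on distinct starts to 148.4 (Stat5a, 13 h), 203.3 (Stat5b, 13 h), 185.9 (Stat5a, 2 rounds) and 332.9 (Stat5b, 2 rounds) RPM. Scaled by reads outside peaks, Stat5a was 223.0, 171.3 and 243.8 at the 3 stages, and Stat5b 238.4 at 13 h and 470.5 after 2 rounds. With 25 bp reads alone Stat5a was 197.1 at 13 h and 239.4 after 2 rounds. The whole window held 290.1, 238.1 and 338.1 RPM (Stat5a) and 159.3, 312.7 and 516.9 RPM (Stat5b). For Stat5b the locus ratio of 13 h to 8 h was no longer past 2-fold on distinct starts (2.18) or by the median ratio (1.24), that of 2 rounds to 8 h turned to 0.845 by the median ratio, and Stat5b to Stat5a at 8 h was called lower when scaled by reads outside peaks (0.445). The cause of these shifts was not tested. By the median ratio, the Stat5b ratio of 2 rounds to 13 h at site 15 fell below 1, to 0.920. Those of 2 rounds to 8 h at sites 5, 10, 16 and 18 fell to 0.992, 0.813, 0.674 and 0.911. These sites, called higher when scaled to mapped reads, were called neither higher nor lower after this scaling.

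Set against 1 in place of 2-fold, by construction more sites were called. For Stat5a 5 were lower from 8 h to 13 h (9.66% of all regions). From 13 h to 2 rounds 9 were higher (21.9%) and 2 lower (14.4%), and from 8 h to 2 rounds 6 higher (14.4%) and 4 lower (7.30%). For Stat5b 14 were higher and 1 lower from 8 h to 13 h and 13 higher and 5 lower from 13 h to 2 rounds. For Stat5b to Stat5a 11 were lower at 8 h (14.6%), 11 higher (16.8%) and 1 lower at 13 h and 13 higher after 2 rounds. The other counts here and those below have no share of all regions beside them. They show only how the calls depend on the setting and are no result about the sites. By the median ratio, Stat5b calls were 0 higher from 8 h to 13 h, 1 higher and 6 lower from 13 h to 2 rounds, 1 higher and 3 lower from 8 h to 2 rounds, and for Stat5b to Stat5a 0 lower at 8 h, 0 higher and 1 lower after 2 rounds. On distinct starts the calls were 1 lower (Stat5a, 8 h to 2 rounds), 0 higher (Stat5b, 8 h to 13 h), 0 lower (Stat5b to Stat5a, 8 h) and 3 higher (2 rounds). With 25 bp reads alone they were 1 higher (Stat5a, 13 h to 2 rounds), 1 higher and 0 lower (Stat5a, 8 h to 2 rounds), 1 higher (Stat5b to Stat5a, 13 h) and 2 higher (2 rounds). Starts moved 75 bp downstream gave 1 higher (Stat5a, 8 h to 2 rounds) and 1 lower (Stat5b, 13 h to 2 rounds). Sites in at least 2 lists gave 1 lower (Stat5a, 8 h to 2 rounds) and 3 higher (Stat5b to Stat5a, 2 rounds).

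Shares called on distinct starts numbered 0 higher and 0 lower from 8 h to 13 h in either antibody and between antibodies at 8 h and 13 h, 2 higher in Stat5a for both steps to 2 rounds, 5 lower in Stat5b (8 h to 2 rounds) and 1 lower in Stat5b to Stat5a (2 rounds). Moved 75 bp, they numbered 0 higher (Stat5a, 8 h to 13 h), 3 higher (Stat5a and Stat5b, 8 h to 2 rounds), 1 lower (Stat5b, 8 h to 13 h), 1 higher (Stat5b to Stat5a, 8 h) and 1 lower (13 h). Sites joined over gaps under 500 bp gave 3 higher and 5 lower (Stat5b, 8 h to 2 rounds), 1 higher (Stat5b to Stat5a, 8 h) and 1 lower (13 h), and 25 bp reads alone 1 lower (13 h) and 3 higher and 4 lower (2 rounds). Pearson's r between the antibodies was 0.852, 0.908 and 0.877 in bins of 250 bp and 0.903, 0.952 and 0.915 in bins of 1000 bp. Depth limits the sites with few reads at 8 h, where the Stat5a library holds 3130228 reads.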
